A study of Mus musculus with 6 samples.

Results

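The genes described here carry glucose from the cell surface to pyruvate and lactate and through the pentose phosphate branch. They were taken by symbol from the count files, and all 35 listed members were found among the 24223 genes, with 34 of them abundant enough to be tested (*Eno1* was not). The members are 2 glucose transporters, 19 genes of glycolysis and of its regulator fructose-2,6-bisphosphate, 2 lactate dehydrogenases, 2 monocarboxylate transporters, 5 genes of pyruvate dehydrogenase and its kinases and 5 of the pentose phosphate pathway. RNA-Seq libraries from mouse T cells were compared, 2 each for Naive, Th17 and Th1. Naive were CD4+CD44- T cells purified from pooled lymph nodes and spleens of C57BL/6 mice of 1 to 2 months of age, and they were not activated. Th17 and Th1 were such cells after 5 days in culture with antibodies to CD3 and CD28 and an antibody to IL-4. The Th17 culture also held an antibody to IFN-γ with TGF-β, IL-6, IL-1β and IL-23, whereas the Th1 culture held IL-12 and IL-2. Activation, culture in medium and the added cytokines therefore come together in each comparison with Naive, and they cannot be told apart. The replicates are described as independent biological replicates, and each library is a bulk culture or preparation.

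Glycolysis splits glucose into pyruvate in the cytosol and yields a little ATP without oxygen. Lactate dehydrogenase then turns pyruvate into lactate, which leaves the cell through monocarboxylate transporters. Alternatively, pyruvate dehydrogenase acts on pyruvate inside the mitochondria. The pentose phosphate pathway branches off at glucose-6-phosphate and gives NADPH and ribose. Naive T cells at rest rely mostly on mitochondrial oxidation, and activated T cells are known to take up more glucose and to make lactate even where oxygen is present.

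The libraries held between 17742158 and 69080017 counts, and in each cell type replicate 1 was deeper than replicate 2. CPM is a gene's counts scaled to a common library total after TMM normalization. *Il17a* stood at 526 and 691 CPM in the Th17 replicates and at no more than 0.541 CPM elsewhere. For *Tbx21*, the Th1 replicates had 138 and 158 CPM, the Naive replicates 23.3 and 20.8 CPM, the Th17 replicates 4.58 and 2.72 CPM. The 9 listed Th17 genes summed to 2205 and 2658 CPM in Th17 and at most 65.1 CPM elsewhere. The 8 listed Th1 genes summed to 2597 and 2267 CPM in Th1 and at most 649 CPM elsewhere. Not every listed gene separated the cell types, since *Rora* overlapped between Th17 (53.3 and 38.0 CPM) and Th1 (42.4 and 25.4 CPM). The list of naive T cell markers overlapped between the cell types, with sums of 3663 and 5764 CPM for Naive, 4418 and 3884 CPM for Th17 and 4149 and 7203 CPM for Th1. Markers of other cell types were present too. A list of 12 erythroid genes summed to 1254 and 186 CPM in the Naive replicates and to at most 13.1 CPM in the other 4 libraries, and a list of 12 neutrophil genes summed to 3123 and 2965 CPM in Th17. In bulk libraries, fewer cells of a type and less RNA per cell cannot be told apart.

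The 35 genes summed to 5970 and 4857 CPM in Naive, 9585 and 8952 CPM in Th17 and 14039 and 15769 CPM in Th1. These sums rest on library totals scaled by TMM and are not shares of the raw counts. The mean sum was thus 1.71 times the Naive sum in Th17 and 2.75 times in Th1, and the 3 cell types did not overlap. *Pkm*, *Ldha*, *Pgk1*, *Aldoa* and *Gpi1* made up most of the sum, so that it says little of the rarer members, which are described one by one.

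A gene was called higher or lower in a comparison at an adjusted p-value under 0.01 (edgeR quasi-likelihood F-test, Benjamini-Hochberg over all 13607 genes tested) and an absolute log2 fold change above 1. In Th17 compared with Naive, 5 of the 34 members tested were called higher and 0 lower, where 4.01% of all genes tested were called higher and 1.43% lower. At an unadjusted p-value under 0.05 there were 14 higher and 4 lower. The share over all genes at that threshold was not taken, so whether those counts exceed it is not known. DESeq2 called 10 higher and 1 lower (*Rpia*), where it called 7.58% of all genes higher and 4.74% lower. In Th1 compared with Naive, 11 members were called higher and 2 lower, against 4.64% and 2.81% of all genes, and DESeq2 called 13 and 2, against 7.67% and 5.67%. Between Th1 and Th17, 1 member was higher in Th1 (2.70% of all genes) and 1 lower (2.83%), close to the share over all genes, and DESeq2 called 6 and 2, against 6.72% and 6.52%. The members that DESeq2 called and edgeR did not were *Slc2a1*, *Tpi1*, *Eno2*, *Pkm* and *Ldha* (higher) and *Rpia* (lower) in Th17 compared with Naive, *Gpi1* and *Ldha* (higher) in Th1 compared with Naive, and *Hk2*, *Gpi1*, *Aldoa*, *Aldoc* and *Slc16a3* (higher) and *Eno2* (lower) in Th1 compared with Th17. Calls named for single genes are those of edgeR. The median log2 fold change of the members was 0.19 for Th17 compared with Naive, 0.45 for Th1 compared with Naive and 0.67 for Th1 compared with Th17. Over all genes tested these medians were -0.02, -0.02 and -0.03. Leaving out Naive replicate 2 or Th17 replicate 1 brought the members called higher in Th17 compared with Naive to 2 (2.39% and 2.19% of all genes), and leaving out Naive replicate 1 brought those in Th1 to 7 (2.49%). The count of members lower in Th1 than in Naive was 0 without Th1 replicate 1 (0.860% of all genes) and 1 without Naive replicate 1, either Th17 replicate or Th1 replicate 2. Between Th1 and Th17, the calls of *Slc2a1* (higher) and *Hk3* (lower) each depended on single libraries, as described below. The median for Th17 compared with Naive was 0.44 without Naive replicate 1, 0.095 without Naive replicate 2 and 0.29 without Th17 replicate 2, that for Th1 compared with Naive was 0.68 without Th1 replicate 1, and that for Th1 compared with Th17 was 0.37 without Th1 replicate 2. Scaling by library size alone brought the median for Th1 compared with Naive to 0.20. Both comparisons with Naive share the Naive libraries, so their values are given side by side and their likeness is not counted as a result.

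**Figure D1:**
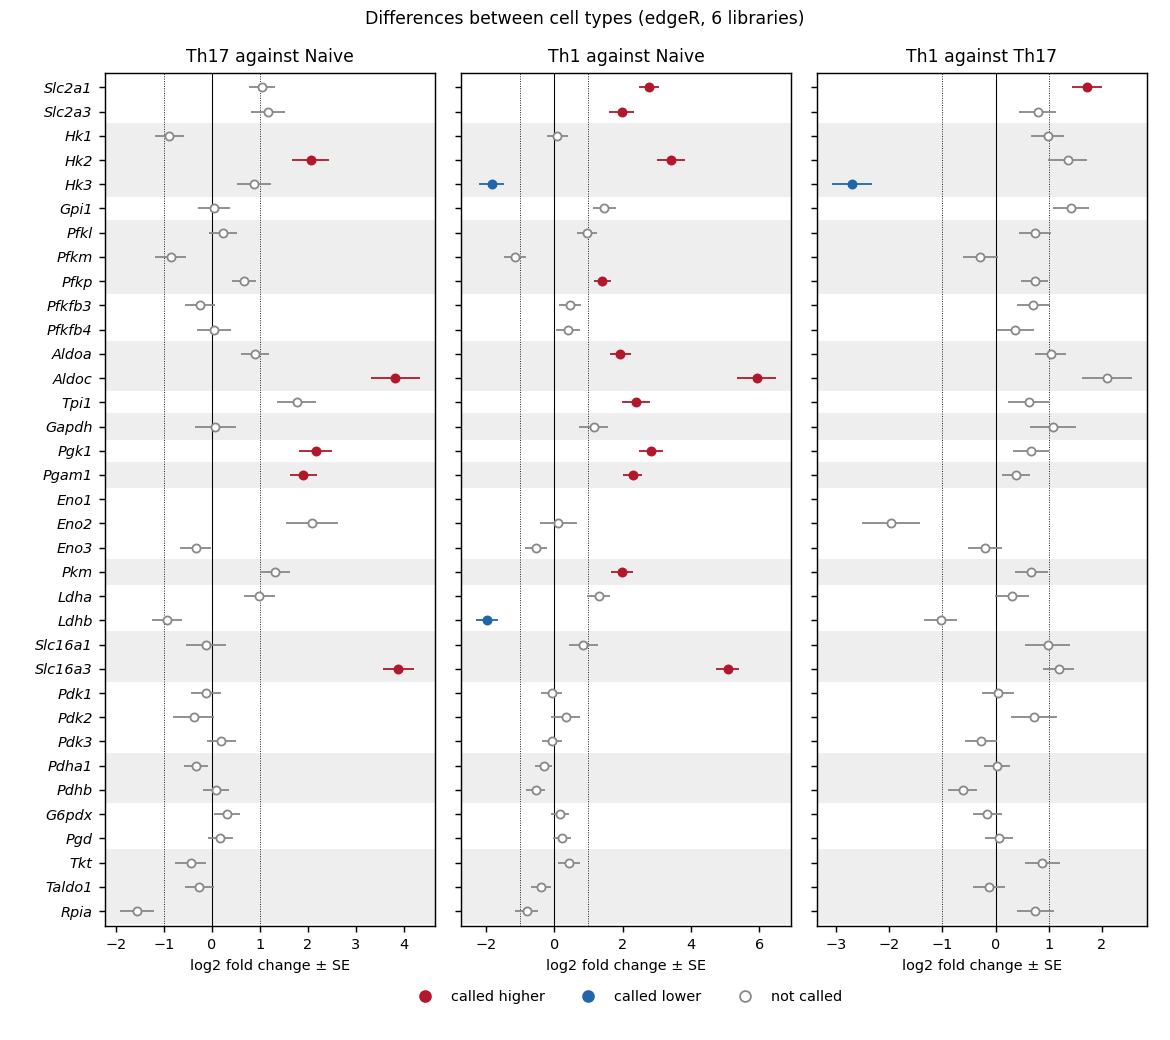
Log2 fold change with its standard error for the 34 members tested, in the order of the pathway (rows) and for the 3 comparisons (panels), from edgeR with 6 libraries. Red points were called higher and blue points lower, open points were not called, dotted lines mark a log2 fold change of 1 in either direction, and grey bands separate the steps. The calls drawn lie between glucose uptake and lactate export, and none of the 5 pentose phosphate genes or the 5 genes of pyruvate dehydrogenase and its kinases was called by edgeR. Of all genes tested, 1.43% to 4.64% were called in a given direction, so no call among 5 genes is close to that share. DESeq2 called *Rpia* lower in Th17 than in Naive.

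Of the members called, *Hk2*, *Aldoc*, *Pgk1*, *Pgam1* and *Slc16a3* were higher in both Th17 and Th1 than in Naive, and *Ldhb* was one of the 2 that were lower in Th1. The 250 bases before their annotated start (RefSeq, GRCm38.p6, one start for each gene) are shown because the first 5 were called in both helper types and *Ldhb* went the other way. Capitals mark each ACGTG or GCGTG, or the same letters read on the other strand, which is the core recognized by hypoxia-inducible factors.
*Slc16a3* (chr11:120948817-120949066, plus strand): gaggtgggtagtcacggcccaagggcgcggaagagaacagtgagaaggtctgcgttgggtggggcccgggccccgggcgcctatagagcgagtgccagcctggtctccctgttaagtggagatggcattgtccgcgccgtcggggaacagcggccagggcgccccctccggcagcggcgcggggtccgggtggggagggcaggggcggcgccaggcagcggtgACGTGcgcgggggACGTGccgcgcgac
*Aldoc* (chr11:78322823-78323072, plus strand): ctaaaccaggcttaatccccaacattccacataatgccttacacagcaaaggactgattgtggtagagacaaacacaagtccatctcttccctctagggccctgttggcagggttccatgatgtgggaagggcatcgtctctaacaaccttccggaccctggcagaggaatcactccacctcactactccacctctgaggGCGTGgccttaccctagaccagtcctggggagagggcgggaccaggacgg
*Pgk1* (chrX:106186850-106187099, plus strand): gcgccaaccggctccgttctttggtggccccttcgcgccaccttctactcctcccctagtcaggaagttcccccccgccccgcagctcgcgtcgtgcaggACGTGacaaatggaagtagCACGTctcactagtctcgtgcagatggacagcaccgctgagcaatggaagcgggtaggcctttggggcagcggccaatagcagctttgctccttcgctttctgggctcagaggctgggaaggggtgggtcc
*Hk2* (chr6:82774455-82774704, minus strand): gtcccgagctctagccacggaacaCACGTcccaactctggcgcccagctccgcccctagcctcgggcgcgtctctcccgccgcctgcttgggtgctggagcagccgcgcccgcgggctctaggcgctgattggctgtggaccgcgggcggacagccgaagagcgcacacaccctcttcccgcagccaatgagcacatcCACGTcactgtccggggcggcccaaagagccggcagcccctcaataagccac
*Pgam1* (chr19:41911621-41911870, plus strand): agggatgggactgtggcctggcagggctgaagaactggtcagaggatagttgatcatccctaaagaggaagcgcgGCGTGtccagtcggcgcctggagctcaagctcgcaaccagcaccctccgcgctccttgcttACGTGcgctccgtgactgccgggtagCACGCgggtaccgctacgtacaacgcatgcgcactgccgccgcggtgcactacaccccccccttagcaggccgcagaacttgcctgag
*Ldhb* (chr6:142507958-142508207, minus strand): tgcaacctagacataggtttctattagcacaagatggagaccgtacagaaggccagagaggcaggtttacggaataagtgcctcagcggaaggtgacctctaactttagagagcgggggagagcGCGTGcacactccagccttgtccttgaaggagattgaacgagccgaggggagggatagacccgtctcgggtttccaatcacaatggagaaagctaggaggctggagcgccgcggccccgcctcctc

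The core was found 2 times before *Slc16a3*, 1 time before *Aldoc*, 2 times before *Pgk1*, 2 times before *Hk2*, 3 times before *Pgam1* and 1 time before *Ldhb*, which fell. RefSeq windows were found for 34 of the 35 members, and 31 of these genes (91.2%) held the core in at least 1 of their windows. The same held for 60.2% of the 10249 tested genes that were matched by symbol and for 41.5% of all 27025 genes with a window. A gene with more windows has more chances to hold the core. Counted by window, the core was in 39 of the 49 windows of the members (79.6%). It was in 38.6% of all 32851 windows, which include those of genes not tested. The letters CACGTG, an E-box that includes the core ACGTG, were found in 5 of the 34 genes (14.7%) and in 9.70% of the tested genes. The windows of the members had a median GC content of 60.1%, where those of the tested genes had 59.6%. Members can have several annotated starts, which differ between RefSeq and GENCODE, and a match of letters shows neither binding nor a cause of a change.

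At the first step, the glucose transporters rose in Th1. *Slc2a1* encodes GLUT1, the main glucose carrier of activated T cells, and lies at chromosome 4, 119108711 to 119137983 (GENCODE vM21 on GRCm38, as for the other members). Its expression was 43.8 and 50.4 CPM in the Naive libraries, 112 and 82.6 CPM in the Th17 libraries and 305 and 336 CPM in the Th1 libraries, so that the cell types were ordered Naive, Th17, Th1 without overlap. In Th1 it was 6.81-fold higher than in Naive (log2 fold change 2.77, standard error 0.29, adjusted p = 2.9e-04) and 3.30-fold higher than in Th17 (log2 fold change 1.72, standard error 0.27, adjusted p = 0.0034). It was the single member called higher in Th1 than in Th17. In Th17 compared with Naive the difference missed the threshold (log2 fold change 1.05, standard error 0.27, adjusted p = 0.03). The call between Th1 and Th17 was lost without Th17 replicate 1, Th17 replicate 2, Th1 replicate 1 or Th1 replicate 2 (log2 fold change 1.53 to 1.95, adjusted p = 0.011 to 0.046). *Slc2a3*, which encodes GLUT3, a high-affinity carrier (chromosome 6, 122727809 to 122801640), had 54.6 and 59.0 CPM in the Naive libraries, 129 and 128 CPM in the Th17 libraries and 141 and 304 CPM in the Th1 libraries. The Th1 replicates differed, and replicate 1 stood close to Th17. *Slc2a3* was 3.92-fold higher in Th1 than in Naive (log2 fold change 1.97, standard error 0.36, adjusted p = 0.0051), a call that was lost without Naive replicate 1, Naive replicate 2, Th17 replicate 1 or Th1 replicate 2 (log2 fold change 1.32 to 2.03, adjusted p = 0.0105 to 0.032). Per kilobase of merged exon, *Slc2a1* took 62.4% and 63.8% in the Naive libraries, 64.1% and 57.2% in the Th17 libraries and 81.7% and 69.5% in the Th1 libraries of the counts of this pair.

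Hexokinase traps glucose in the cell as glucose-6-phosphate, and 2 of its 3 isoforms were called in Th1, in opposite directions. *Hk2*, the inducible isoform of muscle and of proliferating cells (chromosome 6, 82725025 to 82774454), had 9.28 and 5.99 CPM in the Naive libraries, 40.2 and 23.8 CPM in the Th17 libraries and 99.9 and 64.1 CPM in the Th1 libraries. All Th17 libraries were above all Naive libraries, and all Th1 libraries were above both. *Hk2* was 4.17-fold higher in Th17 (log2 fold change 2.06, standard error 0.38, adjusted p = 0.0068) and 10.7-fold higher in Th1 than in Naive (log2 fold change 3.42, standard error 0.40, adjusted p = 5.1e-04). The Th17 call did not hold without Naive replicate 1, Naive replicate 2 or Th17 replicate 1 (log2 fold change 1.64 to 2.42, adjusted p = 0.014 to 0.048). Between Th1 and Th17 the difference was not called (log2 fold change 1.36, standard error 0.37, adjusted p = 0.035). *Hk1*, the isoform found in most tissues, was the most abundant of the 3, with 362 and 237 CPM in the Naive libraries, 189 and 136 CPM in the Th17 libraries and 316 and 324 CPM in the Th1 libraries. It lay lower in Th17 than in Naive without overlap, but neither this difference (log2 fold change -0.88, standard error 0.31, adjusted p = 0.078) nor that between Th1 and Naive (log2 fold change 0.10, standard error 0.31, adjusted p = 0.87) was called.

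*Hk3*, an isoform typical of myeloid cells, went the other way in Th1. The gene (chromosome 13, 55005985 to 55021385) had 10.6 and 8.22 CPM in the Naive libraries, 19.2 and 15.4 CPM in the Th17 libraries and 2.88 and 2.40 CPM in the Th1 libraries. The order was Th1, Naive, Th17, with no overlap between any pair of cell types. It was 3.55-fold lower in Th1 than in Naive (log2 fold change -1.83, standard error 0.37, adjusted p = 0.0083). Against Th17 it was 6.51-fold lower (log2 fold change -2.70, standard error 0.38, adjusted p = 0.0017). The call against Naive was lost without Naive replicate 1, Th17 replicate 1, Th17 replicate 2, Th1 replicate 1 or Th1 replicate 2 (log2 fold change -1.93 to -1.63, adjusted p = 0.016 to 0.036). That against Th17 was lost without Th17 replicate 1 (log2 fold change -2.54, adjusted p = 0.017). The sum of the 12 neutrophil genes was in the same order. It was 376 and 222 CPM for Naive, 3123 and 2965 CPM for Th17 and 31.9 and 43.8 CPM for Th1. Not all single genes of the list were in that order. Of these genes 3 were above 10 CPM in each Naive library, 11 in each Th17 library and at most 1 in a Th1 library, and each of the 12 had counts in at least 1 library. *Mpo* was highest in Naive, with 251 and 159 CPM against 68.1 and 58.7 CPM in Th17. *S100a8* was highest in Th17, with 1149 and 1142 CPM. It was lowest in Naive, with 0.969 and 0.149 CPM against 6.78 and 5.75 CPM in Th1. The 11 macrophage, monocyte and dendritic cell genes found in the files summed to 39.0 and 19.3 CPM for Naive, 257 and 843 CPM for Th17 and 17.1 and 15.3 CPM for Th1. The part of myeloid cells in the difference of *Hk3* was not tested. Among the hexokinases, the share of *Hk2* per kilobase was 3.32% and 3.24% in the Naive libraries, 19.8% and 16.5% in the Th17 libraries and 30.7% and 21.7% in the Th1 libraries, and that of *Hk1* was at least 65.0% in every library.

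**Figure D2:**
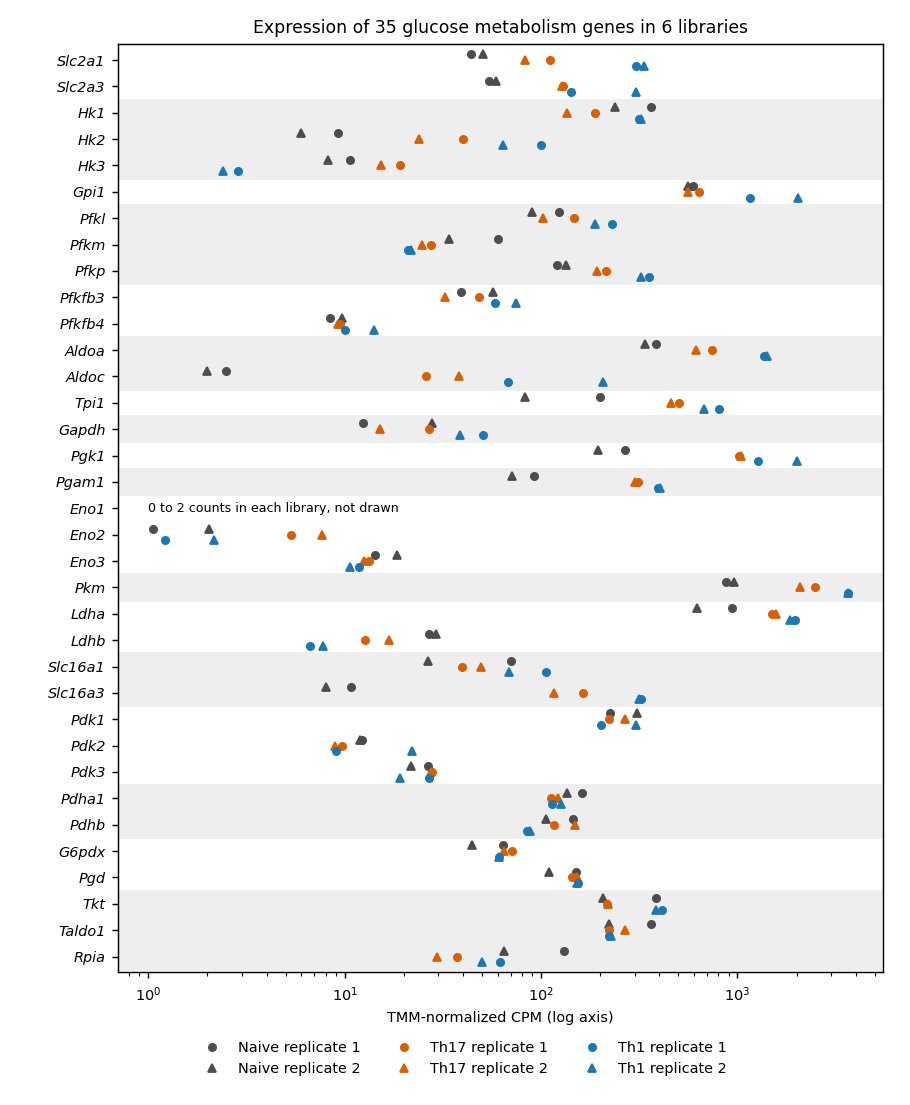
TMM-normalized CPM on a log axis for the members (rows, in the order of the pathway, with *Eno1* not drawn) in each of the 6 libraries, with colour for the cell type, circles for replicate 1 and triangles for replicate 2. *Slc16a3*, *Aldoc* and *Hk2* separate the 3 cell types in the order Naive, Th17, Th1, *Hk3* and *Ldhb* are lowest in Th1, and at the bottom the 5 pentose phosphate genes spread over a narrower range than *Slc16a3* does.

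*Gpi1*, glucose-6-phosphate isomerase, had 590.4 and 562 CPM in the Naive libraries, 634 and 557 CPM in the Th17 libraries and 1159.5 and 2025 CPM in the Th1 libraries. It was higher in both Th1 libraries than in all others but was not called against Naive (log2 fold change 1.47, standard error 0.34, adjusted p = 0.017) or Th17 (log2 fold change 1.42, standard error 0.34, adjusted p = 0.022), with the Th1 replicates far apart.

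Phosphofructokinase commits the sugar to glycolysis, and the balance of its isoforms differed between the cell types. *Pfkp*, the platelet-type subunit (chromosome 13, 6579768 to 6648777), had 121 and 134 CPM in the Naive libraries, 213 and 192 CPM in the Th17 libraries and 355 and 323 CPM in the Th1 libraries. It was 2.66-fold higher in Th1 than in Naive (log2 fold change 1.41, standard error 0.26, adjusted p = 0.0054), a call lost without Naive replicate 1, Naive replicate 2, Th17 replicate 1, Th1 replicate 1 or Th1 replicate 2 (log2 fold change 1.34 to 1.48, adjusted p = 0.013 to 0.036). The platelet and megakaryocyte marker genes summed to 28.7 and 7.58 CPM for Naive, 283 and 484 CPM for Th17 and 81.5 and 39.8 CPM for Th1. The part of such cells in the values of *Pfkp* was not tested. *Pfkl*, the liver-type subunit, had 123 and 90.3 CPM in the Naive libraries, 147 and 103 CPM in the Th17 libraries and 229 and 189 CPM in the Th1 libraries and was not called (Th1 compared with Naive, log2 fold change 0.97, standard error 0.30, adjusted p = 0.05). *Pfkm*, the muscle-type subunit, lay in the other direction, with 60.1 and 34.1 CPM in the Naive libraries, 27.4 and 24.7 CPM in the Th17 libraries and 21.0 and 21.7 CPM in the Th1 libraries. Both Naive libraries were above the other 4, and the difference in Th1 was not called (log2 fold change -1.14, standard error 0.33, adjusted p = 0.04). Per kilobase, the share of *Pfkm* among the 3 subunits was 39.6% and 30.3% in the Naive libraries, 17.8% and 19.9% in the Th17 libraries and 9.40% and 11.05% in the Th1 libraries, without overlap between the cell types. The share of *Pfkp* was 19.9% and 29.6% in the Naive libraries, 34.5% and 38.7% in the Th17 libraries and 39.5% and 40.9% in the Th1 libraries. *Pfkfb3* and *Pfkfb4* make and break down fructose-2,6-bisphosphate, the main activator of phosphofructokinase. Neither was called in any comparison. *Pfkfb3* had 39.3 and 57.0 CPM in the Naive libraries, 48.3 and 32.3 CPM in the Th17 libraries and 58.1 and 74.3 CPM in the Th1 libraries, and *Pfkfb4* stood between 8.38 and 14.1 CPM in all libraries.

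Aldolase splits fructose-1,6-bisphosphate, and its brain isoform *Aldoc* had the largest log2 fold change of all members in Th1 compared with Naive. *Aldoc* (chromosome 11, 78322968 to 78327781) had 2.48 and 1.98 CPM in the Naive libraries, 26.1 and 38.0 CPM in the Th17 libraries and 68.2 and 206 CPM in the Th1 libraries. It was 14.1-fold higher in Th17 (log2 fold change 3.82, standard error 0.51, adjusted p = 0.0014) and 60.5-fold higher in Th1 than in Naive (log2 fold change 5.92, standard error 0.56, adjusted p = 1.9e-04). Both calls held with each library left out, with 3.53 to 4.08 for Th17 and 4.92 to 6.55 for Th1, the lowest of these without Th1 replicate 2. The Th1 replicates lay far apart, and the difference between Th1 and Th17 was not called (log2 fold change 2.10, standard error 0.47, adjusted p = 0.016). *Aldoa*, the main isoform of muscle and lymphocytes (chromosome 7, 126795234 to 126800751), had 386 and 338 CPM in the Naive libraries, 739 and 616 CPM in the Th17 libraries and 1359.5 and 1419 CPM in the Th1 libraries. In Th1 it was 3.84-fold higher than in Naive (log2 fold change 1.94, standard error 0.30, adjusted p = 0.0022), a call lost without Naive replicate 1 or Naive replicate 2 (log2 fold change 1.85 to 2.03, adjusted p = 0.0105 to 0.011). *Aldoa* supplied most of the aldolase counts in every library. The share of *Aldoc* per kilobase was 0.570% and 0.520% in the Naive libraries, 3.05% and 5.22% in the Th17 libraries and 4.28% and 11.4% in the Th1 libraries.

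Among the single-gene steps that follow, 4 were called higher in Th1 and 2 of these also in Th17. *Tpi1*, triosephosphate isomerase (chromosome 6, 124810586 to 124814296), had 199.7 and 82.6 CPM in the Naive libraries, 501 and 461 CPM in the Th17 libraries and 807 and 674 CPM in the Th1 libraries. Its Naive replicates differed more than 2-fold and stayed below the other 4 libraries. It was 5.24-fold higher in Th1 than in Naive (log2 fold change 2.39, standard error 0.41, adjusted p = 0.0039), while Th17 missed the threshold (log2 fold change 1.77, standard error 0.40, adjusted p = 0.018), and the Th1 call was lost without Th1 replicate 1 (log2 fold change 2.30, adjusted p = 0.012). *Pgk1*, phosphoglycerate kinase, which makes the first ATP of the pathway (chromosome X, 106187100 to 106203699), had 266 and 194 CPM in the Naive libraries, 1016 and 1046 CPM in the Th17 libraries and 1268 and 2002 CPM in the Th1 libraries. It was 4.48-fold higher in Th17 (log2 fold change 2.16, standard error 0.35, adjusted p = 0.0034) and 7.10-fold higher in Th1 than in Naive (log2 fold change 2.83, standard error 0.36, adjusted p = 7.9e-04), and the Th17 call was lost without Naive replicate 2, Th17 replicate 1 or Th17 replicate 2 (log2 fold change 1.94 to 2.19, adjusted p = 0.014 to 0.019). *Pgam1*, phosphoglycerate mutase (chromosome 19, 41911923 to 41918660), had 91.6 and 71.1 CPM in the Naive libraries, 311 and 301 CPM in the Th17 libraries and 394 and 405 CPM in the Th1 libraries. Its replicates lay close together in every cell type. It was 3.76-fold higher in Th17 (log2 fold change 1.91, standard error 0.27, adjusted p = 0.0019) and 4.91-fold higher in Th1 (log2 fold change 2.30, standard error 0.28, adjusted p = 6.3e-04), and the Th17 call was lost without Naive replicate 2 or Th17 replicate 1 (log2 fold change 1.73 to 1.90, adjusted p = 0.012 to 0.013). *Pkm*, the pyruvate kinase of most tissues, which makes the second ATP (chromosome 9, 59656368 to 59679375), had 872 and 960.3 CPM in the Naive libraries, 2481 and 2093 CPM in the Th17 libraries and 3639.7 and 3652 CPM in the Th1 libraries, the highest CPM of any member in each Th library. In Th1 it was 3.98-fold higher than in Naive (log2 fold change 1.99, standard error 0.32, adjusted p = 0.0029), a call lost without Naive replicate 1 (log2 fold change 1.92, adjusted p = 0.017). In Th17 the difference was not called (log2 fold change 1.32, standard error 0.32, adjusted p = 0.022). *Pgk1*, *Pgam1*, *Tpi1* and *Pkm* did not differ by a called amount between Th1 and Th17, where their log2 fold changes were 0.67, 0.38, 0.62 and 0.67. The *Pkm* counts are per gene and do not separate its spliced forms M1 and M2.

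*Gapdh* and *Eno1*, usually among the most abundant transcripts of a cell, had few counts in these files. *Gapdh* had 12.4 and 27.9 CPM in the Naive libraries, 26.9 and 15.1 CPM in the Th17 libraries and 50.5 and 38.6 CPM in the Th1 libraries, and it was not called in any comparison (Th1 compared with Naive, log2 fold change 1.15, standard error 0.43, adjusted p = 0.10). *Eno1* had 2 counts in Th17 replicate 1, 2 in Th1 replicate 1 and 0 in the other 4 libraries, at or below the limit of 3 counts, so that no fold change is given. To see how far reads of the members could also fit other genes, each 50-base window of the longest coding transcript of a member in GENCODE vM21 was looked up in the transcripts of all other genes, pseudogenes included. The reads were paired and longer than 50 bases. A shared window therefore does not mean that a whole read pair fits another gene, and the percentages can overstate the share of such reads. For *Gapdh*, 82.5% of the windows were found in other genes, 213 of them pseudogenes. *Eno1* had 72.2%, mostly in *Eno1b*, a near-identical copy. *Pgk1* followed with 68.0%, *Pgam1* with 41.5% and *Pkm* with 34.4%, with the CPM given above. The gene *Eno1b* had 1224 and 310 counts in the Naive libraries, 2406 and 477 in the Th17 libraries and 3585 and 482 in the Th1 libraries, between 15.4 and 55.5 CPM. Some windows of *Eno1* were found in no other gene. The part of shared sequence in these counts was not tested, and the levels of *Gapdh*, *Eno1* and *Eno1b* are uncertain. *Aldoa*, *Ldha*, *Ldhb*, *Gpi1*, *Pfkp*, *Pdha1*, *Pdhb*, *G6pdx* and *Taldo1* shared between 10.7% and 30.3% of their windows and the other members at most 7.51%, 15 of them none.

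**Figure D3:**
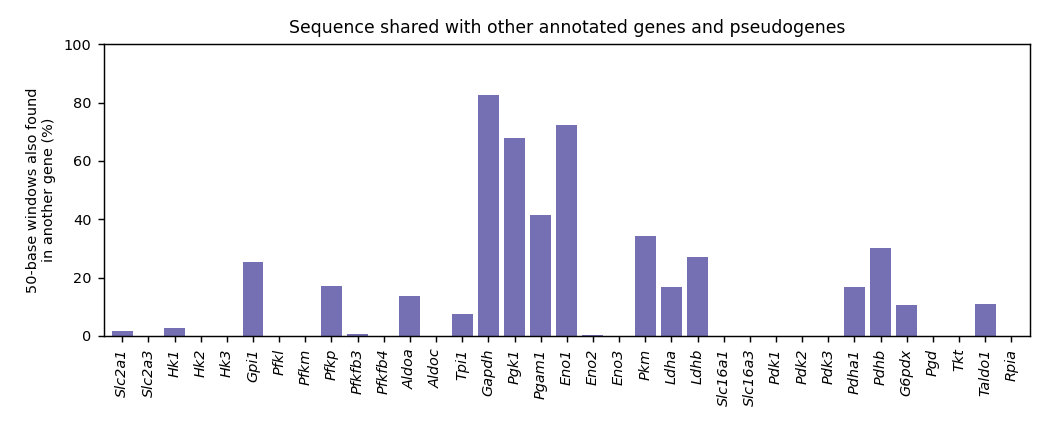
Percentage of the 50-base windows of each member's longest coding transcript that were also found in the annotated transcripts of another gene or pseudogene, with the members in the order of the pathway. *Gapdh*, *Eno1* and *Pgk1* share over 50% of their windows, and *Slc16a3*, *Aldoc*, *Hk2* and *Hk3* share none.

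The other enolases were rare. *Eno2*, the neuronal isoform, had 1.06 and 2.03 CPM in the Naive libraries, 5.36 and 7.64 CPM in the Th17 libraries and 1.22 and 2.15 CPM in the Th1 libraries. It lay higher in both Th17 libraries than in the other 4, and neither the difference from Naive (log2 fold change 2.10, standard error 0.54, adjusted p = 0.029) nor that between Th1 and Th17 (log2 fold change -1.97, standard error 0.54, adjusted p = 0.036) was called. *Eno3*, the muscle isoform, stood between 10.6 and 18.4 CPM and was not called.

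Lactate dehydrogenase converts pyruvate and lactate into each other, and its 2 subunits lay on opposite sides of Naive in Th1. *Ldhb*, the subunit of heart and of oxidative tissues (chromosome 6, 142490249 to 142507957), had 26.7 and 29.1 CPM in the Naive libraries, 12.7 and 16.8 CPM in the Th17 libraries and 6.64 and 7.78 CPM in the Th1 libraries. The order Naive, Th17, Th1 held for every library, from high to low. *Ldhb* was 3.88-fold lower in Th1 than in Naive (log2 fold change -1.96, standard error 0.32, adjusted p = 0.0032), a call lost without Th1 replicate 1 (log2 fold change -1.80, adjusted p = 0.021). Neither Th17 against Naive (log2 fold change -0.92, standard error 0.31, adjusted p = 0.071) nor Th1 against Th17 (log2 fold change -1.03, standard error 0.32, adjusted p = 0.052) was called. *Ldha*, the subunit of muscle and of activated lymphocytes, had 933 and 619 CPM in the Naive libraries, 1504 and 1569.6 CPM in the Th17 libraries and 1957 and 1857 CPM in the Th1 libraries. Its libraries were higher in Th17 and Th1 than in Naive, without a call in Th17 (log2 fold change 0.99, standard error 0.32, adjusted p = 0.064) or in Th1 (log2 fold change 1.30, standard error 0.32, adjusted p = 0.023). Per kilobase, the share of *Ldhb* in the pair was 5.70% and 9.02% in the Naive libraries, 1.75% and 2.21% in the Th17 libraries and 0.710% and 0.875% in the Th1 libraries.

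Lactate export held the member with the smallest adjusted p-values in both comparisons with Naive. *Slc16a3*, which encodes MCT4, a transporter of cells that release much lactate (chromosome 11, 120948480 to 120960868), had 10.8 and 8.02 CPM in the Naive libraries, 164 and 116 CPM in the Th17 libraries and 324 and 314 CPM in the Th1 libraries. It was 14.8-fold higher in Th17 (log2 fold change 3.89, standard error 0.32, adjusted p = 9.6e-05) and 33.8-fold higher in Th1 than in Naive (log2 fold change 5.08, standard error 0.34, adjusted p = 3.0e-05), and both calls held with each library left out. Th1 lay above Th17 without overlap, and that difference was not called (log2 fold change 1.19, standard error 0.29, adjusted p = 0.022). *Slc16a1*, which encodes MCT1, a carrier for lactate in both directions, had 70.1 and 26.4 CPM in the Naive libraries, 39.6 and 49.4 CPM in the Th17 libraries and 106 and 68.8 CPM in the Th1 libraries. The Naive replicates lay on both sides of the Th17 replicates, and no comparison was called (Th1 compared with Naive, log2 fold change 0.86, standard error 0.42, adjusted p = 0.21). Per kilobase, the share of *Slc16a3* in the pair was 11.3% and 20.2% in the Naive libraries, 77.5% and 66.2% in the Th17 libraries and 71.7% and 79.2% in the Th1 libraries, so that it was the minor transporter in Naive and the major one in both helper types.

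**Figure D4:**
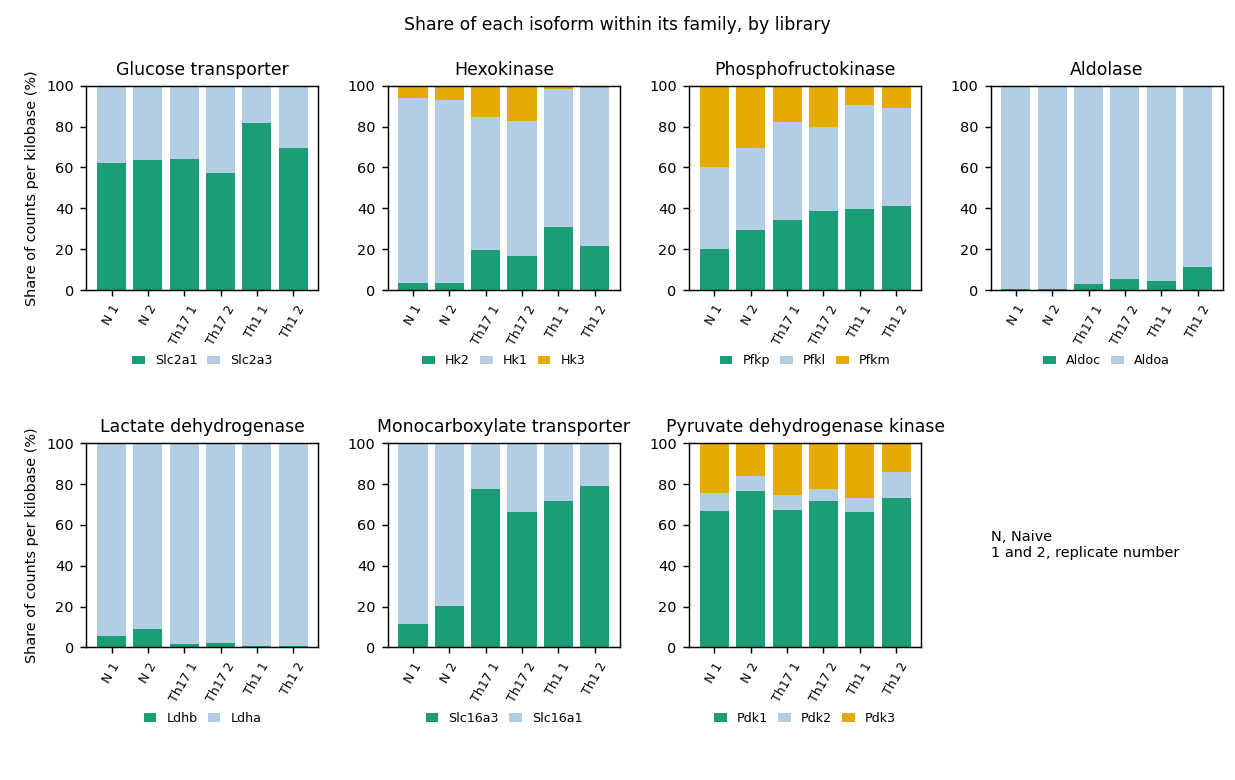
Share of each isoform in the counts per kilobase of merged exon of its family, as a percentage, for 7 families (panels) and the 6 libraries (bars, Naive, Th17 and Th1 with replicates 1 and 2). *Slc16a3* goes from at most 20.2% in Naive to at least 66.2% in Th17 and Th1. *Hk2* and *Pfkp* take larger shares and *Ldhb* and *Pfkm* smaller shares in Th17 and Th1 than in Naive. *Pdk1* and *Pdk3* keep overlapping shares. That of *Pdk2* is lower in both Th17 libraries (7.18% and 5.91%) than in any Naive or Th1 library.

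Of the 5 genes of pyruvate dehydrogenase and its kinases, none was called in any comparison, where 1.43% to 4.64% of all genes were called in a given direction. *Pdk1*, *Pdk2* and *Pdk3* encode kinases that switch pyruvate dehydrogenase off. *Pdk1*, the most abundant, had 223 and 308 CPM in the Naive libraries, 222 and 266 CPM in the Th17 libraries and 202 and 303 CPM in the Th1 libraries, and the cell types overlapped. Its log2 fold change in Th1 compared with Naive was -0.07 (95% interval -0.76 to 0.61). *Pdk2* stood between 8.94 and 21.9 CPM and *Pdk3* between 19.1 and 27.9 CPM. *Pdha1* and *Pdhb* encode the 2 subunits of the first enzyme of the complex. *Pdha1* had 161 and 136 CPM in the Naive libraries, 112 and 122 CPM in the Th17 libraries and 113 and 127 CPM in the Th1 libraries, and *Pdhb* had 145 and 106 CPM in the Naive libraries, 117 and 149 CPM in the Th17 libraries and 84.9 and 87.6 CPM in the Th1 libraries. Both were lower in the Th1 libraries than in the Naive libraries, without a call (log2 fold changes -0.31 and -0.54, adjusted p = 0.47 and 0.22).

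None of the 5 pentose phosphate genes was called by edgeR either, again close to the share over all genes. DESeq2 called *Rpia* lower in Th17 than in Naive. *G6pdx* and *Pgd* encode the enzymes of the oxidative branch that give NADPH. *G6pdx*, the first of them, had 64.2 and 44.5 CPM in the Naive libraries, 70.9 and 65.0 CPM in the Th17 libraries and 60.9 and 61.3 CPM in the Th1 libraries, with a log2 fold change of 0.17 in Th1 compared with Naive (95% interval -0.43 to 0.77). *Pgd* had 151 and 110.1 CPM in the Naive libraries, 143 and 152 CPM in the Th17 libraries and 154 and 153 CPM in the Th1 libraries, with 0.23 (95% interval -0.35 to 0.82) in the same comparison. In the non-oxidative branch, which links ribose to glycolysis, *Tkt*, transketolase, had 384 and 206 CPM in the Naive libraries, 216 and 219 CPM in the Th17 libraries and 413 and 386 CPM in the Th1 libraries. *Taldo1*, transaldolase, had 364 and 221 CPM in the Naive libraries, 222 and 267 CPM in the Th17 libraries and 221 and 227 CPM in the Th1 libraries. The Naive replicates differed in both, and replicate 2 lay within the range of Th17 or close to it. *Rpia*, which makes ribose-5-phosphate, had 131 and 64.5 CPM in the Naive libraries, 37.2 and 29.4 CPM in the Th17 libraries and 61.8 and 50.01 CPM in the Th1 libraries. Both Naive libraries were above the other 4, and the difference was not called in Th17 (log2 fold change -1.55, standard error 0.35, adjusted p = 0.018) or in Th1 (log2 fold change -0.81, standard error 0.35, adjusted p = 0.15). *Rpia*, *Tkt*, *Taldo1*, *Tpi1*, *Hk1* and *Slc16a1* were each higher in Naive replicate 1 than in replicate 2. So were most of the members tested. Only *Slc2a1*, *Slc2a3*, *Pfkp*, *Pfkfb3*, *Pfkfb4*, *Gapdh*, *Eno2*, *Eno3*, *Pkm*, *Ldhb* and *Pdk1* were lower in replicate 1. The erythroid genes with counts were also higher in Naive replicate 1. Of the 12 erythroid genes, 6 were above 10 CPM in Naive replicate 1 and 4 in replicate 2, with *Klf1* at 97.5 and 16.2 CPM, and the 4 globin genes of the list were at 0 in all libraries. The proliferation genes, with 1694 and 812 CPM, and the mast cell and basophil genes, with 212 and 66.7 CPM, were also higher in Naive replicate 1 than in replicate 2. The proliferation genes summed to 1767 and 1634 CPM in the Th17 libraries and 5117 and 1527 CPM in the Th1 libraries. The part of these cells and of proliferation in the values was not tested. Without Naive replicate 1, the log2 fold change of *Rpia* was -0.95 in Th17 and -0.21 in Th1.

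Between genes, levels can be compared only per length, here as mean CPM per kilobase of merged exon. In Naive, *Ldha* had 282 and 187 and *Pkm* 174 and 192, and their order differed between the replicates. Next in the means came *Taldo1* with 168 and 102 and *Aldoa* with 133 and 116, also in an order that differed between the replicates. In Th17, *Ldha*, *Pgk1* and *Pkm* had means of 464, 459 and 457. In Th1, *Pkm* had 728 and 730.2, *Pgk1* 565 and 892 and *Ldha* 591 and 561. The order depended on the length used, since per kilobase of the longest transcript the means in Th1 were 1499 for *Pkm*, 1051 for *Ldha* and 896 for *Pgk1*, and in Naive 234 for *Aldoa* and 215 for *Taldo1*. Per kilobase of merged exon, *Slc16a3* went from 1.77 in Naive to 26.3 in Th17 and 59.95 in Th1. *Taldo1*, the most abundant pentose phosphate gene per length, was not called, with 112 in Th17 and 103 in Th1. Reads that fit more than 1 gene may be missing from these levels.

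A further list of 53 genes of glucose transport, glycolysis, pyruvate entry and the pentose phosphate pathway held 39 that were tested. Of these, 1 was called higher and 1 lower in Th17 compared with Naive, 1 higher and 3 lower in Th1 compared with Naive, and 1 lower in Th1 compared with Th17, where all genes gave 4.01% and 1.43%, 4.64% and 2.81%, and 2.83%. Their median log2 fold changes were -0.10, -0.28 and -0.06. *Slc2a6*, a glucose transporter of the GLUT family, had 1.20 and 0.495 CPM for Naive, 21.0 and 21.2 CPM for Th17 and 6.88 and 2.34 CPM for Th1, and was higher in Th17 than in Naive (log2 fold change 4.55, standard error 0.62, adjusted p = 0.0014). The gene listed as *Pgm2* is a phosphoglucomutase, and since the mouse symbols *Pgm1* and *Pgm2* have been exchanged between annotations, which of the 2 enzymes it is remains uncertain. It had 34.6 and 48.8 CPM for Naive, 54.2 and 41.2 CPM for Th17 and 102 and 125 CPM for Th1, and rose in Th1 compared with Naive (log2 fold change 1.45, standard error 0.29, adjusted p = 0.0082). *Ldhd*, which acts on D-lactate, had 2.61 and 3.61 CPM for Naive, 1.99 and 2.15 CPM for Th17 and 0.170 and 0.126 CPM for Th1, and was called lower in Th1 than in Naive (adjusted p = 0.0016) and than in Th17 (adjusted p = 0.0041). Th1 replicate 2 was under the limit of 3 counts, so that no fold change is given for it. *Slc16a7*, which encodes MCT2, was called lower in Th1 than in Naive, with 1.67 and 0.545 CPM in Naive and 1 and 0 counts in Th1, also under the limit. *Pklr*, the pyruvate kinase of red cells and liver, had 136 and 15.2 CPM in Naive and at most 0.113 CPM in Th17 and Th1, with 5 and 2 counts in Th17 and 6 and 0 in Th1. It was called lower in both than in Naive (adjusted p = 8.5e-04 and 6.5e-04), and no fold change is given because replicate 2 of each helper type was under the limit of 3 counts. Its Naive replicates differed in the same direction as the erythroid genes, and whether erythroid cells were its source was not tested.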

How the data were processed

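The authors deposited raw read counts per gene for each library. Per the labels, RNA was captured by its poly(A) tail, reverse transcribed by Smart-seq2 and sequenced from TruSeq libraries, and the processing notes name HISAT2 2.2.1, HTSeq 0.13.5, StringTie 2.1.7 and DESeq2 1.34.0 with the build mm10. The annotation is not given in the sources used here, which also differ on whether duplicate reads were removed and on the strand setting of HTSeq, so counts of overlapping genes are uncertain.

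The 35 members and the other gene lists were chosen with earlier results of these data known. Genes were kept with filterByExpr (13607 of 24223), normalized by TMM and tested with edgeR 4.0.16 (glmQLFit and glmQLFTest, cell type as the only term, all 6 libraries, two-sided, Benjamini-Hochberg), with the thresholds of the study. Standard errors are the fold change divided by the root of F. Libraries held 17742158 to 69080017 counts, and reads are not independent molecules. Values were given in every library for members called at least once and for the most abundant member of each step, and for other pathway genes that were called. Exact permutation of 2 against 2 libraries cannot reach 0.05 and was not used. DESeq2 1.42.0 and other normalizations, filters, lengths and library subsets served as alternatives. Scripts were tested on simulated counts. Coordinates are from GENCODE vM21 (GRCm38, the same assembly as mm10), and the 250 bases before each start from RefSeq (GRCm38.p6).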

Additional observations from a re-analysis of the deposited data

Results flagged for a closer look

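*Hk3* differed between the helper types in its distance from Naive. It lay above Naive in Th17 (log2 fold change 0.88, adjusted p = 0.11, not called) and below Naive in Th1 (-1.83, adjusted p = 0.0083), and the test of the difference between both, which is the comparison of Th1 with Th17, gave -2.70 (edgeR, adjusted p = 0.0017). Both Th17 libraries were above and both Th1 libraries below the Naive libraries.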

How the results depend on the processing

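Counts of calls moved with the test and the threshold. In Th17 compared with Naive, DESeq2, no filter on low counts and an adjusted p-value under 0.05 each gave 10 members higher and 1 lower (*Rpia* in DESeq2), where they called 7.58% and 4.74%, 6.74% and 5.33% and 8.99% and 6.17% of all genes higher and lower. Between Th1 and Th17, DESeq2 and an adjusted p-value under 0.05 each gave 6 higher and 2 lower, no filter gave 5 and 2, and library size alone gave 0 higher, against 6.72% and 6.52%, 7.61% and 7.91%, 6.66% and 5.85% and 1.48% of all genes. With only the 4 libraries compared, 1 member was lower in Th1 than in Naive (2.09% of all genes). No label states that a replicate number marks a shared animal or batch, though replicate 1 was the deeper library in each cell type. The correlation of the deviations of same-numbered libraries from the cell type means over 13607 genes was -0.29 for Naive and Th17, 0.22 for Naive and Th1 and 0.097 for Th17 and Th1, so that not every pair was over 0.1 and the numbers were not taken as pairs. A fit with the replicate number as a block gave 6 higher and 1 lower in Th17 compared with Naive, 11 and 2 in Th1 compared with Naive, and 3 and 1 between Th1 and Th17, against 5.19% and 2.42%, 6.17% and 4.14% and 3.62% and 4.03% of all genes. Pairing the numbers of Naive and Th17 crosswise, chosen after seeing the data, gave 6 higher and 0 lower. The share over all genes was not taken for that fit, so its counts cannot be set against the others.

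When each library was left out in turn, the members called higher numbered 2 to 5 in Th17 compared with Naive, 7 to 11 in Th1 compared with Naive and 0 to 1 in Th1 compared with Th17, and those called lower 0 to 1, 0 to 2 and 0 to 1. Over all genes the shares called higher were 2.19% to 4.73%, 2.49% to 4.11% and 0.740% to 3.28%, and those called lower 0.211% to 1.88%, 0.860% to 3.28% and 1.10% to 3.72%. The median log2 fold change ranged over 0.095 to 0.44, 0.38 to 0.68 and 0.37 to 0.73. Scaling by library size alone brought the median in Th1 compared with Naive to 0.20 and the mean summed CPM in Th1 to 13367.

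No call reversed. Members that were not called changed the sign of their log2 fold change when libraries were left out, with these ranges. In Th17 compared with Naive these were *Gpi1* -0.040 to 0.14, *Pfkl* -0.050 to 0.47, *Pfkfb3* -0.57 to 0.027, *Pfkfb4* -0.059 to 0.14, *Gapdh* -0.40 to 0.76, *Slc16a1* -0.67 to 0.75, *Pdk1* -0.34 to 0.12, *Pdhb* -0.13 to 0.32, *Pgd* -0.047 to 0.42, *Tkt* -0.83 to 0.074 and *Taldo1* -0.59 to 0.15. In Th1 compared with Naive these were *Hk1* -0.18 to 0.43, *Eno2* -0.31 to 0.63, *Pdk1* -0.39 to 0.23, *Pdk2* -0.42 to 0.90, *Pdk3* -0.29 to 0.15, *G6pdx* -0.072 to 0.45 and *Taldo1* -0.70 to 0.018. In Th1 compared with Th17 these were *Pdk1* -0.26 to 0.31, *Pdk2* -0.035 to 1.23, *Pdha1* -0.039 to 0.11 and *Taldo1* -0.26 to 0.024. Library size alone gave *Hk1* -0.15, *Eno2* -0.14, *G6pdx* -0.077 and *Pgd* -0.013 in Th1 compared with Naive, and *Pdk1* -0.17, *Pdha1* -0.18 and *Pgd* -0.16 in Th1 compared with Th17. In the last comparison, at least 10 counts in every library gave *Pdk1* -0.041, *Pdha1* -0.056 and *Pgd* -0.029, and thinning to the smallest library gave *Pgd* -0.0035. The replicate block gave *Slc16a1* 0.040 in Th17 compared with Naive. The cause was not tested.

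Isoform shares depended on the length used. With the longest transcript, the mean share of *Slc2a1* was 61.3% in Naive, of *Hk2* 1.86% in Naive, 11.6% in Th17, 16.3% in Th1, of *Pfkp* 38.2% in Th1, of *Aldoc* 0.340% in Naive, of *Ldhb* 4.99% in Naive, 1.31% in Th17, 0.525% in Th1 and of *Pdk1* 73.1% in Th17. With no correction for length, it was 45.3% in Naive, 42.8% in Th17, 60.4% in Th1 for *Slc2a1*, 2.41% in Naive, 14.9% in Th17 for *Hk2*, 45.8% in Naive, 57.6% in Th17, 59.6% in Th1 for *Pfkp*, 0.610% in Naive for *Aldoc*, 3.64% in Naive, 0.948% in Th17, 0.378% in Th1 for *Ldhb* and 87.7% in Naive, 86.7% in Th17, 86.5% in Th1 for *Pdk1*. With 2 libraries per cell type, members that were not called can still differ, and members with shared sequence may have lost reads.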
